A study of Mus musculus with 2 samples.

Results

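Mid1 and 8 genes around protein phosphatase 2A (PP2A) were followed through the cell classes of the mouse hippocampus. The 9 genes were taken by symbol from the 32285 genes of the count tables. They are Mid1, its binding partner Igbp1, the catalytic subunit genes Ppp2ca and Ppp2cb, the scaffold gene Ppp2r1a, and the regulatory subunit genes Ppp2r2a, Ppp2r2b, Ppp2r2c and Ppp2r5c. Mid1 was chosen because its level was lower in the neurons of the tau library, so its ratios in neurons are a description of that choice. The other 8 genes were chosen for their place in the pathway.

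The data are single-nucleus RNA sequencing of hippocampi from C57BL/6J mice at 6 weeks of age. At postnatal day 0 all mice received adeno-associated virus (AAV) in both lateral ventricles, so virus and injection are common to the groups. Control mice (AAV-STOP) received human MAPT, the gene of tau, cut short by an early stop codon, and AAV-TAU mice the wild-type 2N4R form of human tau at full length. The hippocampi of 3 mice were pooled into 1 library per group, so no spread between mice is known and no test of a difference was possible. All intervals below are exact 95% intervals that cover counting error only.

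PP2A is the main phosphatase that removes phosphate from tau in the brain. The enzyme is built from a catalytic subunit, a scaffold and 1 of many regulatory subunits, and the regulatory subunit sets where the enzyme acts and on what. Mid1 is a microtubule-bound ubiquitin ligase. Through alpha4, the protein made from Igbp1, it binds the catalytic subunit and marks it for breakdown. Regulatory subunits of the B55 family, to which Ppp2r2a, Ppp2r2b and Ppp2r2c belong, carry the enzyme to tau and to microtubules, while Ppp2r5c encodes a subunit of the B56 family.

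Mid1 (ENSMUSG00000035299) lies on chromosome X from 169685199 to 170005736 on the plus strand of GRCm38 and spans 321 kb. The mouse gene is known to cross the boundary of the pseudoautosomal region, the segment that chromosomes X and Y share. A related pseudogene, Mid1-ps1, is annotated on chromosome Y and was not analysed here. Antisense genes also lie within Mid1, and the strand setting of the counting is not given in the sources used here. The Mid1 counts therefore carry an uncertainty about reads from these genes. Igbp1 also lies on chromosome X, from 100494291 to 100516125. The other 7 genes are autosomal: Ppp2ca on chromosome 11 (52098681 to 52127778), Ppp2cb on 8 (33599625 to 33619441), Ppp2r1a on 17 (20945311 to 20965916), Ppp2r2a on 14 (67014056 to 67072444), Ppp2r2b on 18 (42637432 to 43059471), Ppp2r2c on 5 (36868513 to 36955078) and Ppp2r5c on 12 (110447120 to 110583062). Ppp2ca and Ppp2cb encode nearly identical proteins, and Igbp1 has a close copy, Igbp1b, so that reads could be split between copies.

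RefSeq gives start-site windows on GRCm38.p6 for 6 of the 9 genes. The sequences below are shown because Mid1 has several start sites of unlike base make-up, and because Ppp2ca and Ppp2r1a, the core enzyme genes with a window, show the CpG-rich starts that other members share. Each is the plus strand, 5′ to 3′, ending just before the start site or, for Ppp2ca and Ppp2r1a, before the gene's first exon in GENCODE, with CpG pairs in capitals. The Mid1 windows are chrX:169684949-169685198 for start site 1, chrX:169827909-169828158 for start site 2 and chrX:169879369-169879618 for start site 3. The Ppp2ca stretch is chr11:52098574-52098680, and the Ppp2r1a stretch is chr17:20945204-20945310.
Mid1 start site 1: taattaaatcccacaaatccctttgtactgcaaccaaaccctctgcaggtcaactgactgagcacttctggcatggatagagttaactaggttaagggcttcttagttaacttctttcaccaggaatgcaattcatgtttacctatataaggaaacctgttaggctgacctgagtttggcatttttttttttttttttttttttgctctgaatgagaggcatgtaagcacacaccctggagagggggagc
Mid1 start site 2: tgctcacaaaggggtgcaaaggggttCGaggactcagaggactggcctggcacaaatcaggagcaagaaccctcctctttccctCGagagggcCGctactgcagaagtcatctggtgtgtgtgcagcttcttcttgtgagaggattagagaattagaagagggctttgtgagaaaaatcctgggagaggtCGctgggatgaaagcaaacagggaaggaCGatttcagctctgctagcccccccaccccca
Mid1 start site 3: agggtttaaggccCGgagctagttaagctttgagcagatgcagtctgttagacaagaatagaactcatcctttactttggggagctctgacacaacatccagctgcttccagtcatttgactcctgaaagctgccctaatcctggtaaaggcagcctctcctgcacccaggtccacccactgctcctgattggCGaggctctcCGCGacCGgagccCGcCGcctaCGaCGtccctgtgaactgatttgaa
Ppp2ca: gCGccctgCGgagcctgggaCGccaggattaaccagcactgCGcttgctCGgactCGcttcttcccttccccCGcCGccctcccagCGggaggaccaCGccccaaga
Ppp2r1a: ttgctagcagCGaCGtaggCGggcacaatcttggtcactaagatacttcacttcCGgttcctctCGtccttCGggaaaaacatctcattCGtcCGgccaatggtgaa

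The 250 bases before the 3 Mid1 start sites held 0, 5 and 9 CpG pairs, where the median of 32851 RefSeq windows was 6. The full 250-base windows of Ppp2ca and Ppp2r1a held 30 and 25, more than 94.1% and 89.3% of windows. Those of Ppp2r5c start site 1 and Ppp2r2c, whose ratios stayed near 0 in the mature neurons, held 31 and 23, more than 94.8% and 86.7%. Among the motifs searched on both strands, the GC box (GGGCGG) was in the full windows of Ppp2ca, Ppp2r1a, Ppp2r2c and Ppp2r5c start site 1 and in 32.7% of all windows. The CCAAT box (CCAAT) was in those of Mid1 start site 3, Igbp1, Ppp2r1a and Ppp2r5c start site 2 and in 33.8%. The cyclic AMP response element (TGACGTCA) was in the full Ppp2ca window and in 1.55% of all windows, outside the stretch printed above. These matches describe letters in a window. Counts from the 3′ end of transcripts do not tell which start site was used.

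The AAV-STOP library held 130252240 unique molecular identifiers (UMIs, each counting 1 captured transcript) in 20265 barcodes, and the AAV-TAU library 109428807 in 19596. After filtering, 17797 and 17309 nuclei were left, with medians of 5585 and 4948 UMIs per nucleus. Mitochondrial counts took a median of 0.172% of UMIs per AAV-STOP nucleus and 0.280% per AAV-TAU nucleus, and 116 barcode sequences occurred in both libraries. Clustering and marker genes gave 13 classes with 100 or more nuclei in each library, 7 of them neuronal, which held 29541 nuclei in all. The suffix -like marks that a class was named from marker genes alone. The vectors' human MAPT was not analysed here, so the labels carry no check from the transgene.

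Levels are CPM, the UMIs of a gene per 1000000 UMIs of its class and library. A log2 ratio divides the AAV-TAU level by the AAV-STOP level after adding 5 CPM to each, which understates the difference of low genes. A gene counted as higher or lower when its log2 ratio passed 0.322 in either direction, the fold used throughout, among genes with 100 or more UMIs over both libraries in the class. Most genes lay close to 0. The median ratio of all genes tested was 0.06 in granule-like neurons and lay between -0.04 and 0.07 across the 13 classes.

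Few members passed that fold in neurons, and Mid1 was the member that did so most often. All 9 members reached 100 UMIs in granule-like, CA1-like and CA3-like neurons, and in each the only member past the fold was Mid1, which was lower. The share of all genes tested that were lower past the fold was 0.0997% in granule-like neurons, 0.162% in CA1-like neurons and 0.949% in CA3-like neurons, and since Mid1 was picked from this contrast nothing is read from its place among them. The shares higher past it were 3.86%, 4.58% and 6.66%. In subicular or cortical-like neurons 2 of 9 members were higher, Ppp2ca and Ppp2cb, where 7.72% of all genes were higher, and none was lower, where 1.04% were. Inhibitory-like neurons had 1 of 9 lower, again Mid1, with 0.587% of all genes lower, and none higher, with 6.67% higher.

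Smaller classes had wider intervals and more genes past the fold. Immature-like neurons had 3 of 7 members higher (Ppp2ca, Ppp2r1a and Ppp2r2c, with 12.6% of all genes higher) and 1 lower (Mid1, with 6.85% lower). Cajal-Retzius-like neurons had 1 of 4 lower (Ppp2r2c, with 13.8% of all genes lower) and none higher (12.5%). Oligodendrocyte-like nuclei had 2 of 8 higher, Ppp2r1a and Ppp2r2b, against 14.4% of all genes, and none lower, against 2.8%. Astrocyte-like nuclei had 3 of 8 higher, Ppp2ca, Ppp2r1a and Ppp2r2a, against 14.9%, and none lower, against 7.38%.

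In oligodendrocyte precursor-like nuclei 1 of 9 was higher, Ppp2r1a, against 13.2% of all genes, and none lower, against 4.66%. Ppp2r1a was also the 1 of 4 that was higher in microglia-like nuclei, against 17.4%, with none lower, against 12.6%. Fibroblast-like nuclei had 2 of 6 lower, Mid1 and Ppp2r2b, against 12.8%, and none higher, against 17.1%. No member of 5 passed the fold in newly formed oligodendrocyte-like nuclei, where 11.3% of genes were higher and 8.95% lower. Each of these counts rests on 4 to 9 members in 1 pair of libraries.

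**Figure D1:**
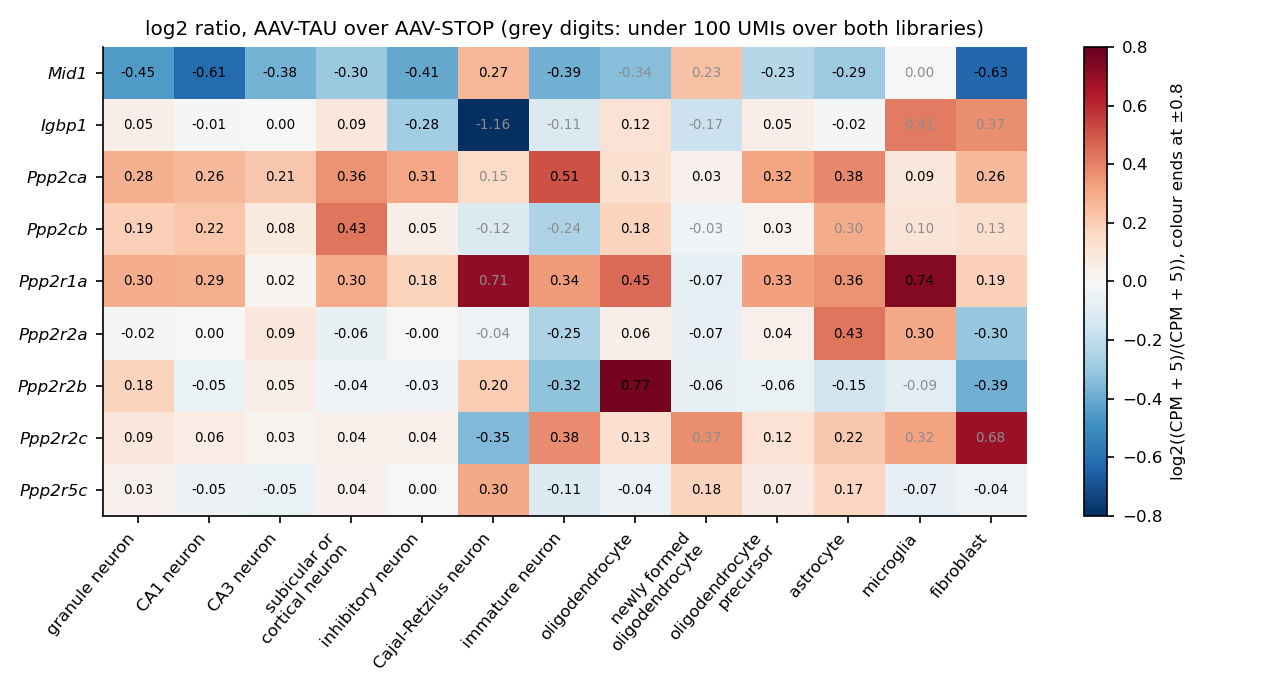
Log2 ratio of AAV-TAU over AAV-STOP for the 9 genes (rows) in the 13 classes (columns), with blue for lower and red for higher in AAV-TAU and grey digits where fewer than 100 UMIs were counted over both libraries. Mid1 is below 0 in 10 of 13 classes, while Ppp2ca is above 0 in 13 of 13 and Ppp2r1a in 12 of 13.

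Mid1 was most abundant outside the principal neurons. Cajal-Retzius-like neurons, an early-born type at the hippocampal fissure, had 160.3 CPM in AAV-STOP and 194 CPM in AAV-TAU. Astrocyte-like nuclei had 178 and 144 CPM, fibroblast-like nuclei 148 and 94.0 CPM, and immature-like neurons 141 and 106 CPM. These 4 classes stood above all the others in both libraries. Their intervals overlapped one another in AAV-STOP, while in AAV-TAU those of Cajal-Retzius-like and astrocyte-like nuclei lay above those of immature-like and fibroblast-like nuclei.

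Astrocyte-like nuclei held 6.06 times the Mid1 level of granule-like neurons in AAV-STOP (5.29 to 6.94) and 7.18 times in AAV-TAU (6.21 to 8.29). Immature-like neurons held 4.79 times (4.09 to 5.59) and 5.28 times (4.28 to 6.48) the level of granule-like neurons. Along the oligodendrocyte classes the Mid1 level was 45.2 and 37.8 CPM in precursor-like nuclei, 15.8 and 19.4 CPM in newly formed and 8.04 and 5.31 CPM in mature oligodendrocyte-like nuclei, the lowest of the 13 classes. Precursor-like nuclei stood 5.62 times (3.76 to 8.56) and 7.12 times (4.50 to 11.5) above mature ones.

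**Figure D2:**
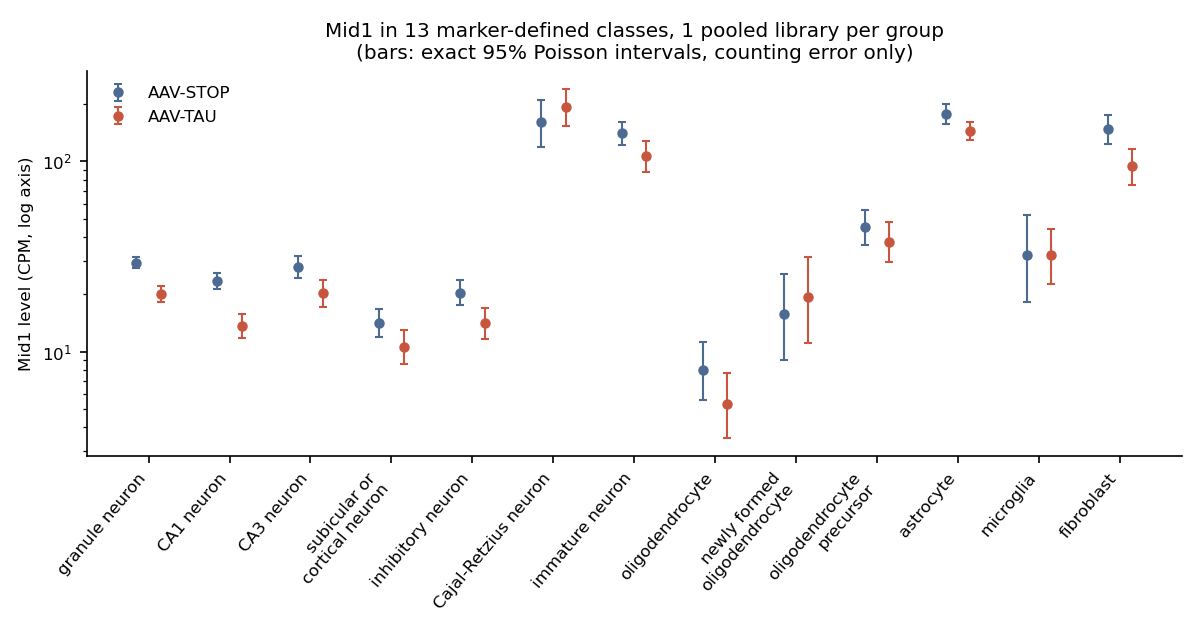
Mid1 level in CPM (log axis) in the 13 classes for AAV-STOP (blue) and AAV-TAU (red), with bars for exact 95% Poisson intervals of the counts. The highest levels, 94.0 to 194 CPM, are in Cajal-Retzius, immature, astrocyte and fibroblast classes, and the lowest, 8.04 and 5.31 CPM, in oligodendrocytes.

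In granule-like neurons Mid1 stood at 29.3 CPM in AAV-STOP (896 UMIs, 27.5 to 31.3 CPM) and at 20.1 CPM in AAV-TAU (461 UMIs, 18.3 to 22.1 CPM), a log2 ratio of -0.45. The intervals of the libraries did not overlap. CA1-like neurons had 23.5 CPM (21.2 to 25.9) and 13.6 CPM (11.7 to 15.7), a log2 ratio of -0.61 and a ratio of 0.580 (0.485 to 0.692). Levels in CA3-like neurons were 27.9 and 20.3 CPM, a ratio of 0.730 (0.590 to 0.901). Among the other mature neurons, inhibitory-like nuclei had 20.4 and 14.1 CPM (log2 ratio -0.41, ratio 0.541 to 0.881) and subicular or cortical-like nuclei 14.2 and 10.6 CPM (ratio 0.749, 0.572 to 0.978). The Mid1 interval thus lay below 1 in these 5 classes, and the ratio in subicular or cortical-like neurons, -0.30, did not pass the fold.

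The neuronal classes with high Mid1 lay on opposite sides of 0, but their ratio intervals overlapped and the difference between them was not tested. Immature-like neurons had 200 Mid1 UMIs (141 CPM) in AAV-STOP and 119 (106 CPM) in AAV-TAU, a log2 ratio of -0.39 with a ratio interval of 0.598 to 0.955. With only nuclei of low mitochondrial share, that ratio was 0.21, the opposite direction. Cajal-Retzius-like neurons had 51 UMIs (160.3 CPM) and 82 UMIs (194 CPM), a log2 ratio of 0.27 whose interval (0.842 to 1.75) held 1.

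The rule that picked Mid1 did not use the classes outside neurons. There the Mid1 ratio interval lay below 1 in astrocyte-like nuclei (178 against 144 CPM, log2 ratio -0.29, ratio 0.691 to 0.956) and fibroblast-like nuclei (148 against 94.0 CPM, log2 ratio -0.63, ratio 0.476 to 0.846). It held 1 in the other 4 glial classes, with log2 ratios of -0.34 in oligodendrocyte-like, -0.23 in precursor-like, 0.23 in newly formed oligodendrocyte-like and 0.00 in microglia-like nuclei. In precursor-like nuclei, with 89 and 70 UMIs, the ratio interval of 0.602 to 1.16 held the granule-like ratio of 0.686 and left out the CA1-like ratio of 0.580. In the other 3, with 16 to 37 UMIs per library, the intervals held both ratios. The fibroblast-like value rested on few nuclei, since 1 nucleus alone held 15 Mid1 UMIs and 70 of 292 held any.

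In the fibroblast-like class markers of other vascular cells moved as well. The 8 endothelial markers summed to 1189.7 CPM in AAV-STOP and 1746 CPM in AAV-TAU, with 6 of 8 higher, and the 7 mural markers to 869 and 1226 CPM, with 7 of 7 higher. Within its 1 finer cluster with 100 nuclei in both libraries, Mid1 was at 50.2 and 25.7 CPM, from 28 and 18 UMIs. The part of these cells in the Mid1 value was not tested.

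Xist, the transcript of the inactive X chromosome, is given beside Mid1 because both are X-linked. It stood at 4.68 CPM in AAV-STOP and 4.89 CPM in AAV-TAU in granule-like neurons, at 2.53 and 1.245 CPM in CA1-like neurons and at 1.40 and 1.46 CPM in CA3-like neurons. Xist was lower in AAV-TAU in fibroblast-like nuclei (127 and 2.29 CPM), newly formed oligodendrocyte-like nuclei (66.1 and 10.9 CPM), immature-like neurons (28.8 CPM and no UMI), microglia-like nuclei (20.04 and 1.74 CPM), oligodendrocyte-like nuclei (17.7 and 5.11 CPM) and subicular or cortical-like neurons (6.94 and 0.336 CPM). It was higher in AAV-TAU in Cajal-Retzius-like neurons (6.29 and 28.4 CPM), inhibitory-like neurons (5.19 and 17.2 CPM), precursor-like nuclei (5.08 and 19.96 CPM) and astrocyte-like nuclei (15.03 and 21.5 CPM). Its part in the Mid1 values was not tested.

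Finer clusters show how the Mid1 ratio varied within the classes. They hold the same nuclei of the same libraries, so they describe the choice of Mid1 further and do not repeat it. Of 28 finer clusters with 100 or more nuclei in both libraries, Mid1 was below 0 in 24, and its interval lay below 1 in 10 and above 1 in none. All 5 granule clusters were below 0, from -0.77 to -0.20. Levels ran from 29.0 to 14.9 CPM in the cluster with the widest gap and from 30.9 to 26.3 CPM in the one with the narrowest. The 3 CA1 clusters lay between -0.95 (23.9 and 9.93 CPM) and -0.54 (21.5 and 13.2 CPM), with intervals below 1 in all 3.

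Astrocyte-like nuclei fell into a cluster with 132 and 99.8 CPM of Mid1 and a smaller one with 394 and 359 CPM, the highest Mid1 level of any finer cluster. Sox6, Lama2 and Adgrv1 led the smaller cluster, whose 10 leading genes also held Tnc and Slc1a3. The interval lay below 1 in the first (ratio 0.613 to 0.939) and held 1 in the second (0.706 to 1.18). Mid1 was below 0 in 7 of the 8 unnamed clusters with 100 or more nuclei in both libraries. Its interval lay below 1 only in those led by Rmst (ratio 0.298 to 0.806) and by Tshz2 (0.334 to 0.900). The cluster above 0, led by Ttr, held 1 and 11 Mid1 UMIs. Several of these clusters had leading genes from the neuronal marker sets, such as Tshz2, Hs3st4 and Nxph1. The count therefore does not stand apart from the neurons in which Mid1 was picked.

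**Figure D3:**
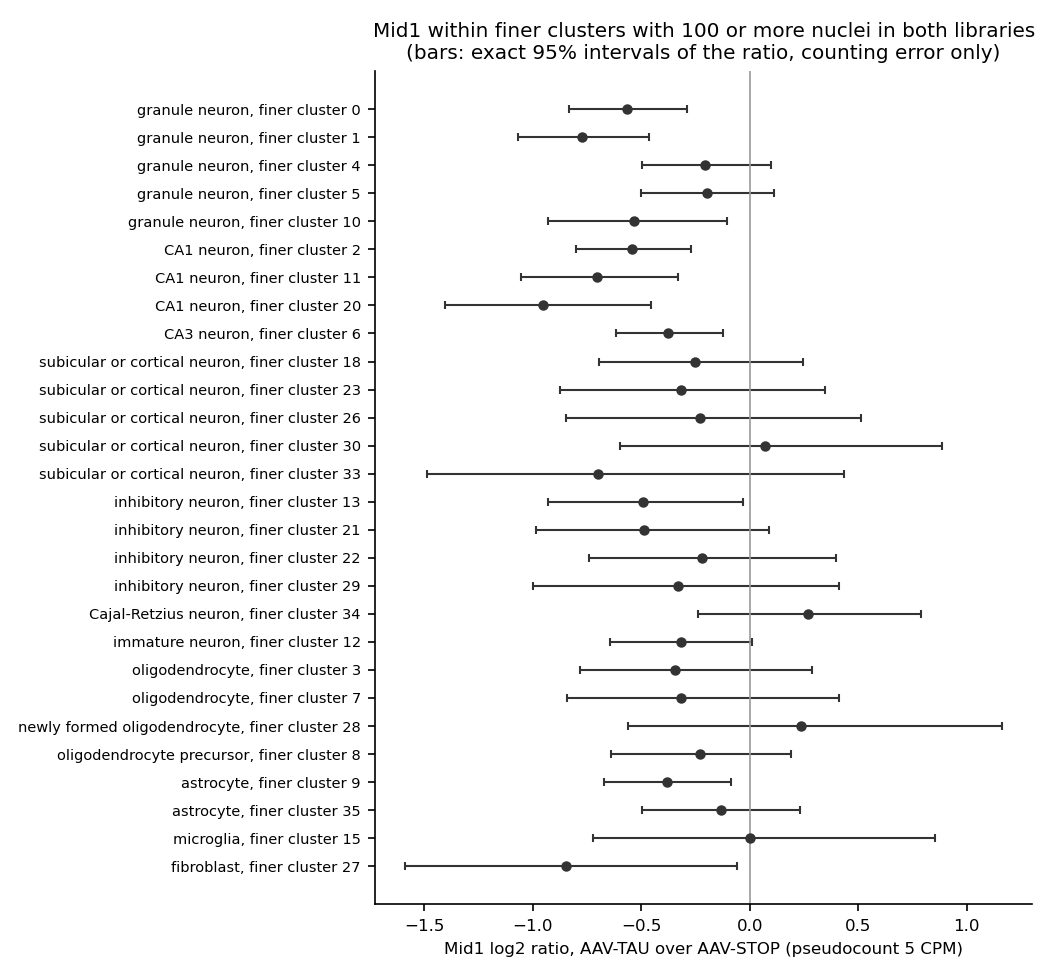
Mid1 log2 ratio of AAV-TAU over AAV-STOP (horizontal axis) in each of 28 finer clusters with 100 or more nuclei in both libraries (rows), with bars for exact 95% intervals of the ratio. In 24 of 28 clusters the point lies left of 0, including 5 of 5 granule and 3 of 3 CA1 clusters.

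With every nucleus thinned to 2000 UMIs, the share of nuclei with a Mid1 UMI was lower in AAV-TAU in granule-like and CA1-like neurons. The intervals of the libraries did not overlap there. Mid1 was picked as lower in neurons of these same libraries, so the neuronal shares describe that choice further and do not test it. In granule-like neurons the share was 5.60% of 5321 nuclei in AAV-STOP (5.00 to 6.25) and 3.69% of 4229 in AAV-TAU (3.14 to 4.30). In CA1-like neurons it was 5.11% (4.23 to 6.11) and 2.42% (1.77 to 3.23). In all other classes the intervals overlapped. The share was lower in AAV-TAU in CA3-like (4.92% and 4.1985%), inhibitory-like (3.34% and 2.52%) and immature-like neurons (20.7% and 18.7%). It was also lower in astrocyte-like (26.8% and 21.5%) and fibroblast-like nuclei (18.5% and 12.8%). It was higher in AAV-TAU in Cajal-Retzius-like neurons (23.7% and 25.5%) and precursor-like nuclei (7.46% and 7.68%). Newly formed oligodendrocyte-like (4.13% and 4.42%) and microglia-like nuclei (4.32% and 6.99%) were higher too. Thinning left out 18 of 203 and 338 of 567 microglia-like nuclei. Without thinning the shares were 14.7% and 9.78% in granule-like and 15.2% and 8.70% in CA1-like neurons. Most neurons of either library thus showed no Mid1 UMI.

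Oligodendrocyte-like nuclei, the class with the lowest Mid1 level, held a share of 1.47% (0.936 to 2.20) and 0.644% (0.309 to 1.18). Their median depths were 2558 and 2372.5 UMIs before thinning, against 5388 and 5150 in granule-like neurons. Free RNA was not measured, and its part in any of these shares was not tested. Granule-like and CA1-like shares lay above the oligodendrocyte-like share in each library. The subicular or cortical-like share, 3.38% in AAV-STOP and 1.68% (1.04 to 2.55) in AAV-TAU, overlapped it in AAV-TAU. Thinning left out 32 and 446 oligodendrocyte-like nuclei but only 5 and 16 granule-like ones.

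Gene length and chromosome were set beside the Mid1 values, and their part in these values was not tested. In granule-like neurons, genes over 100 kb, as Mid1 is, had a median log2 ratio of -0.02 and 0.372% of 2149 were lower past the fold. Long genes were lower more often in other classes. Of genes over 100 kb, 13.15% were lower past the fold in astrocyte-like nuclei, 16.4% in fibroblast-like nuclei and 8.87% in immature-like neurons. The shares of all genes there were 7.38%, 12.8% and 6.85%. The 445 X-linked genes tested in granule-like neurons had a median of 0.06, equal to the rounded median of autosomal genes. Of the genes beside Mid1 on chromosome X, Arhgap6 was at 16.7 and 17.4 CPM in granule-like neurons. It was lower in CA1-like neurons (11.0 against 7.10 CPM, log2 ratio -0.40) and higher in CA3-like neurons (7.51 against 17.2 CPM, 0.82), classes in which Mid1 was lower. Tmsb4x, which encodes an actin-binding peptide and lies farther from Mid1, was higher past the fold in all 13 classes, from 0.42 to 0.76.

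Igbp1, whose protein alpha4 links Mid1 to the catalytic subunit, reached 100 UMIs in 8 of 13 classes and passed the fold in none of those 8. It stood at 17.2 and 17.99 CPM in granule-like neurons, at 15.7 and 15.5 CPM in CA1-like neurons and at 30.8 and 33.8 CPM in oligodendrocyte-like nuclei. Its level in granule-like neurons therefore differed by less than counting error (ratio 0.919 to 1.20). The only interval that left out 1 was in inhibitory-like neurons, at 20.4 against 16.0 CPM (ratio 0.618 to 0.987, log2 ratio -0.28). In classes under the minimum its log2 ratio was -1.16 in Cajal-Retzius-like neurons (7 and 3 UMIs), 0.41 in microglia-like nuclei (15 and 48 UMIs) and 0.37 in fibroblast-like nuclei (22 and 30 UMIs), with intervals that held 1. Glial classes ranked above neurons, and oligodendrocyte-like nuclei stood 1.79 times (1.47 to 2.17) and 1.88 times (1.56 to 2.25) above granule-like neurons.

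The genes of the core enzyme lay mostly above 0, as did most genes in the mature neuron classes. Ppp2ca, the more abundant product of the catalytic genes in most tissues, was above 0 in 13 of 13 classes, where 45.6% (Cajal-Retzius-like) to 71.0% (granule-like) of all genes tested were. It stood at 69.8 CPM (66.9 to 72.8) and 86.2 CPM (82.4 to 90.0) in granule-like neurons, a log2 ratio of 0.28. Ppp2ca levels were 60.8 and 73.8 CPM in CA1-like neurons and 51.9 and 61.0 CPM in CA3-like neurons. Of the 13 intervals, 8 lay above 1. The share of all genes with such intervals is not given here, so nothing is read from that count.

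Ppp2ca passed the fold in 3 classes. These were subicular or cortical-like neurons (56.5 and 74.1 CPM, 0.36), immature-like neurons (93.4 and 135 CPM, 0.51) and astrocyte-like nuclei (101 and 133 CPM, 0.38). Its levels were highest in oligodendrocyte-like, newly formed oligodendrocyte-like and microglia-like nuclei, at 159 to 175 CPM, and 2.28 times (2.09 to 2.49) and 2.03 times (1.87 to 2.19) higher in oligodendrocyte-like nuclei than in granule-like neurons. All 5 mature neuron classes stood below the other 8 classes in Ppp2ca, with 51.9 to 86.2 CPM.

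Ppp2cb, the second catalytic gene, followed with wider intervals. Granule-like neurons had 19.1 and 22.4 CPM (ratio 1.04 to 1.33) and CA1-like neurons 17.0 and 20.6 CPM (1.03 to 1.44). It passed the fold in subicular or cortical-like neurons, at 14.4 and 21.0 CPM, a log2 ratio of 0.43. Its granule-like ratio of 0.19 was -0.05 with nuclei thinned to 2000 UMIs and -0.03 with nuclei assigned to classes one by one from their markers, so its direction there depended on the setting.

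Ppp2r1a, the scaffold on which the enzyme is assembled, was above 0 in 12 of 13 classes. Its intervals lay above 1 in 6, again without the share of all genes beside that count. Granule-like neurons had 36.0 CPM (33.9 to 38.1) and 45.3 CPM (42.6 to 48.1), a log2 ratio of 0.30 that was just short of the fold. CA1-like neurons had 34.4 and 43.1 CPM (0.29). The widest gaps with an interval above 1 were in oligodendrocyte-like nuclei, at 51.2 and 72.0 CPM (0.45), and in microglia-like nuclei, at 50.1 and 86.8 CPM (0.74), the latter from 25 and 100 UMIs. CA3-like neurons stood apart at 35.0 and 35.6 CPM (0.02).

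Ppp2ca and Ppp2r1a are short genes, of 29.1 and 20.6 kb, and short genes as a whole lay above 0. Among granule-like neurons the 6993 genes under 30 kb had a median of 0.10 on the log2 scale, and 6.29% were higher past the fold, against 0.95% of 3882 genes of 30 to 100 kb. In oligodendrocyte-like nuclei the median of genes under 30 kb was 0.12 and 22.5% were higher. The part of gene length in the Ppp2ca and Ppp2r1a ratios was not tested. Across the 26 class and library points, Ppp2ca and Ppp2r1a levels ran together (Pearson r = 0.85 of log2(CPM + 5)), as a description of points that share libraries.

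**Figure D4:**
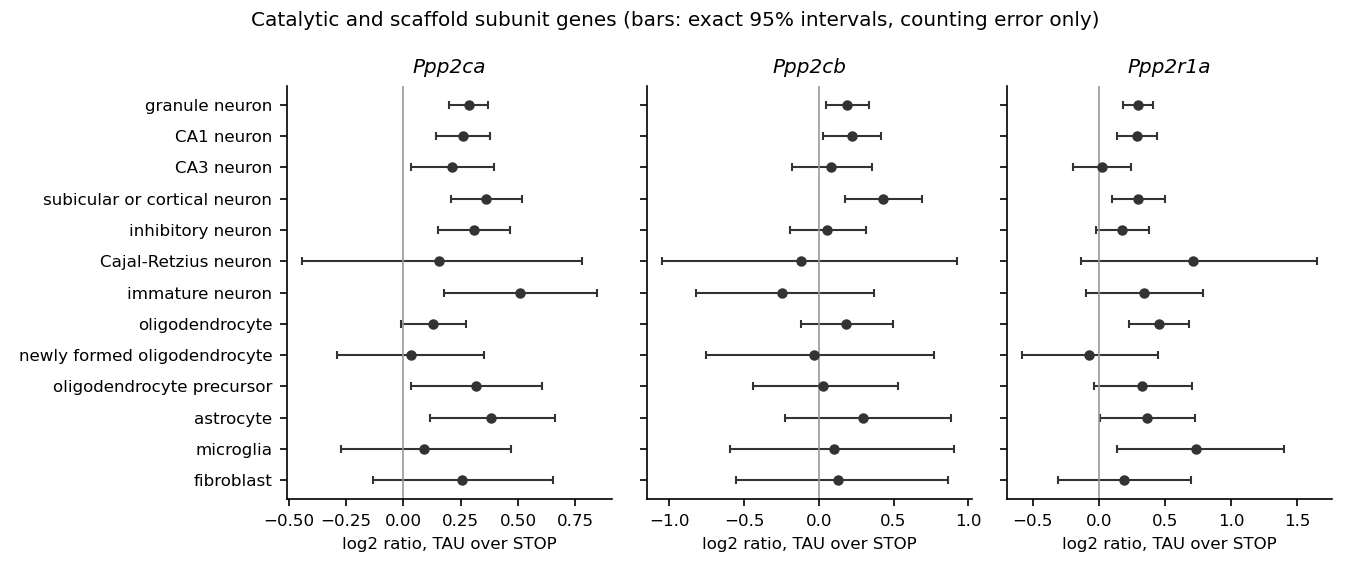
Log2 ratio of AAV-TAU over AAV-STOP (horizontal axes, each panel with its own range) for the catalytic genes Ppp2ca and Ppp2cb and the scaffold gene Ppp2r1a in the 13 classes (rows), with bars for exact 95% intervals. All 13 points of Ppp2ca and 12 of 13 of Ppp2r1a lie right of 0, with 8 and 6 intervals clear of it. The share of all genes with such intervals is not given.

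The regulatory genes differed far more between classes than between libraries. Ppp2r2b, the B55 beta gene known for its expression in brain, was highest in oligodendrocyte precursor-like nuclei, at 956 CPM (914 to 1000.5) in AAV-STOP and 920.0 CPM (877 to 965) in AAV-TAU. CA1-like, CA3-like, subicular or cortical-like, inhibitory-like and Cajal-Retzius-like neurons and astrocyte-like nuclei lay between 544 and 648 CPM. Granule-like neurons were the exception among mature neurons, with 58.6 CPM (55.9 to 61.3) and 66.8 CPM (63.5 to 70.2).

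CA1-like neurons thus held 11.0 times (10.5 to 11.6) and 9.31 times (8.82 to 9.84) the Ppp2r2b level of granule-like neurons. Immature-like neurons, with 277 and 221 CPM, stood between, 4.73 times (4.23 to 5.28) and 3.31 times (2.88 to 3.78) above granule-like ones. All 5 finer granule clusters held 50.0 to 79.0 CPM in both libraries, and the 3 CA1 clusters 565 to 705 CPM. With nuclei thinned to 2000 UMIs, 69.4% of CA1-like nuclei and 10.7% of granule-like nuclei of AAV-STOP had a Ppp2r2b UMI, and 68.9% and 11.8% in AAV-TAU.

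Ppp2r2b also marked a steep gradient along the oligodendrocyte classes. From precursor-like to newly formed and mature nuclei its level was 956, 178 and 34.9 CPM in AAV-STOP and 920.0, 170.1 and 62.9 CPM in AAV-TAU. Precursor-like nuclei stood 27.4 times (23.2 to 32.5) and 14.6 times (12.97 to 16.5) above mature ones. The other B55 genes had higher levels in mature than in precursor-like nuclei. Ppp2r2a was at 139 CPM in precursor-like and 239 CPM in mature nuclei of AAV-STOP and at 143 and 249 CPM in AAV-TAU, and Ppp2r2c at 30.5 and 101 CPM and at 33.5 and 110.3 CPM. Ppp2r2d, the B55 delta gene, was at 51.8 and 62.7 CPM and at 33.5 and 62.1 CPM.

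Among the 13 classes, Ppp2r2b differed most between the libraries in oligodendrocyte-like nuclei, at 34.9 against 62.9 CPM (152 and 320 UMIs, log2 ratio 0.77, ratio 1.48 to 2.20). Both finer oligodendrocyte clusters showed it, with 35.0 and 68.2 CPM in one and 34.8 and 55.0 CPM in the other. Some neuronal transcripts were also higher in the same class. Rbfox3, a marker of neuronal nuclei, was at 36.7 and 58.6 CPM and Snap25, a synaptic gene, at 189 and 303 CPM. Syt1, another synaptic gene, was closer between the libraries, at 894 and 995 CPM. Ttr, a marker of choroid plexus and not of neurons, was at 127 and 247 CPM. Markers of granule neurons summed to 3419 and 3049.6 CPM with 3 of 8 higher, those of CA1 neurons to 504 and 365 CPM with 5 of 6 higher, those of CA3 neurons to 98.1 and 104 CPM with 3 of 6 higher and those of inhibitory neurons to 1967 and 1584 CPM with 7 of 9 higher. The granule marker sum lay above that of granule-like neurons themselves (3006 and 2821 CPM). In the CA1 and inhibitory sets most markers were higher while the sum was lower, so the few lower markers outweighed them. The sums therefore do not measure RNA from neurons. The part of RNA from neurons in the Ppp2r2b value was not tested.

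In the neuronal classes with the highest Ppp2r2b the libraries were close. CA1-like neurons had 644 and 622 CPM (ratio 0.938 to 0.993) and inhibitory-like neurons 627 and 614 CPM (0.942 to 1.02). Immature-like neurons (277 and 221 CPM, log2 ratio -0.3197, ratio 0.678 to 0.938) and fibroblast-like nuclei (100.5 and 75.7 CPM, -0.39, 0.538 to 1.05) were lower in AAV-TAU, and only the second passed the fold. Within the 1 finer fibroblast cluster with 100 nuclei in both libraries, Ppp2r2b was at 138 and 79.8 CPM. In the 8 unnamed clusters with 100 or more nuclei in both libraries, Ppp2r2b was below 0 in 7 and above 0 in 1. Its widest gap was in the unnamed cluster led by Ttr (117 and 548 nuclei), at 545 and 206 CPM (-1.38, ratio 0.310 to 0.462). Ppp2ca in that cluster was at 165 and 306 CPM (0.87).

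Ppp2r2a, the B55 alpha gene, was highest in mature and newly formed oligodendrocyte-like nuclei, at 216 to 249 CPM, and 2.82 times (2.62 to 3.03) and 2.96 times (2.76 to 3.18) higher in mature ones than in granule-like neurons. It was even between the libraries in all 5 mature neuron classes, with log2 ratios from -0.06 to 0.09, as at 85.0 and 84.0 CPM in granule-like neurons. Astrocyte-like nuclei were the 1 class past the fold, at 74.5 CPM (61.7 to 89.2) and 102 CPM (89.3 to 116), a log2 ratio of 0.43.

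Ppp2r2c, the B55 gamma gene, was highest in Cajal-Retzius-like neurons, at 349 CPM (287 to 420.1) and 272 CPM (224 to 326), above all other classes in both libraries. Granule-like and CA3-like neurons followed, at 119 to 127 CPM, and the lowest levels were in fibroblast-like nuclei of AAV-STOP, at 23.1 CPM, and astrocyte-like nuclei, at 23.8 and 28.5 CPM. The gene passed the fold as lower in Cajal-Retzius-like neurons (-0.35, ratio 0.595 to 1.02) and as higher in immature-like neurons (47.8 and 63.5 CPM, 0.38, ratio 0.939 to 1.88), both with intervals that held 1. The immature-like value turned to -0.25 with only nuclei of low mitochondrial share.

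Ppp2r5c, the B56 gamma gene, was close between the libraries. It reached 100 UMIs in all 13 classes, passed the fold in none, and all 13 intervals held 1. Its lowest level was 100.2 CPM, among astrocyte-like nuclei, and its highest 200.4 CPM, among microglia-like nuclei, both of AAV-STOP. CA3-like neurons, at 183 and 177 CPM, were the highest of the mature neurons, and granule-like neurons, at 104 and 107 CPM, the lowest.

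**Figure D5:**
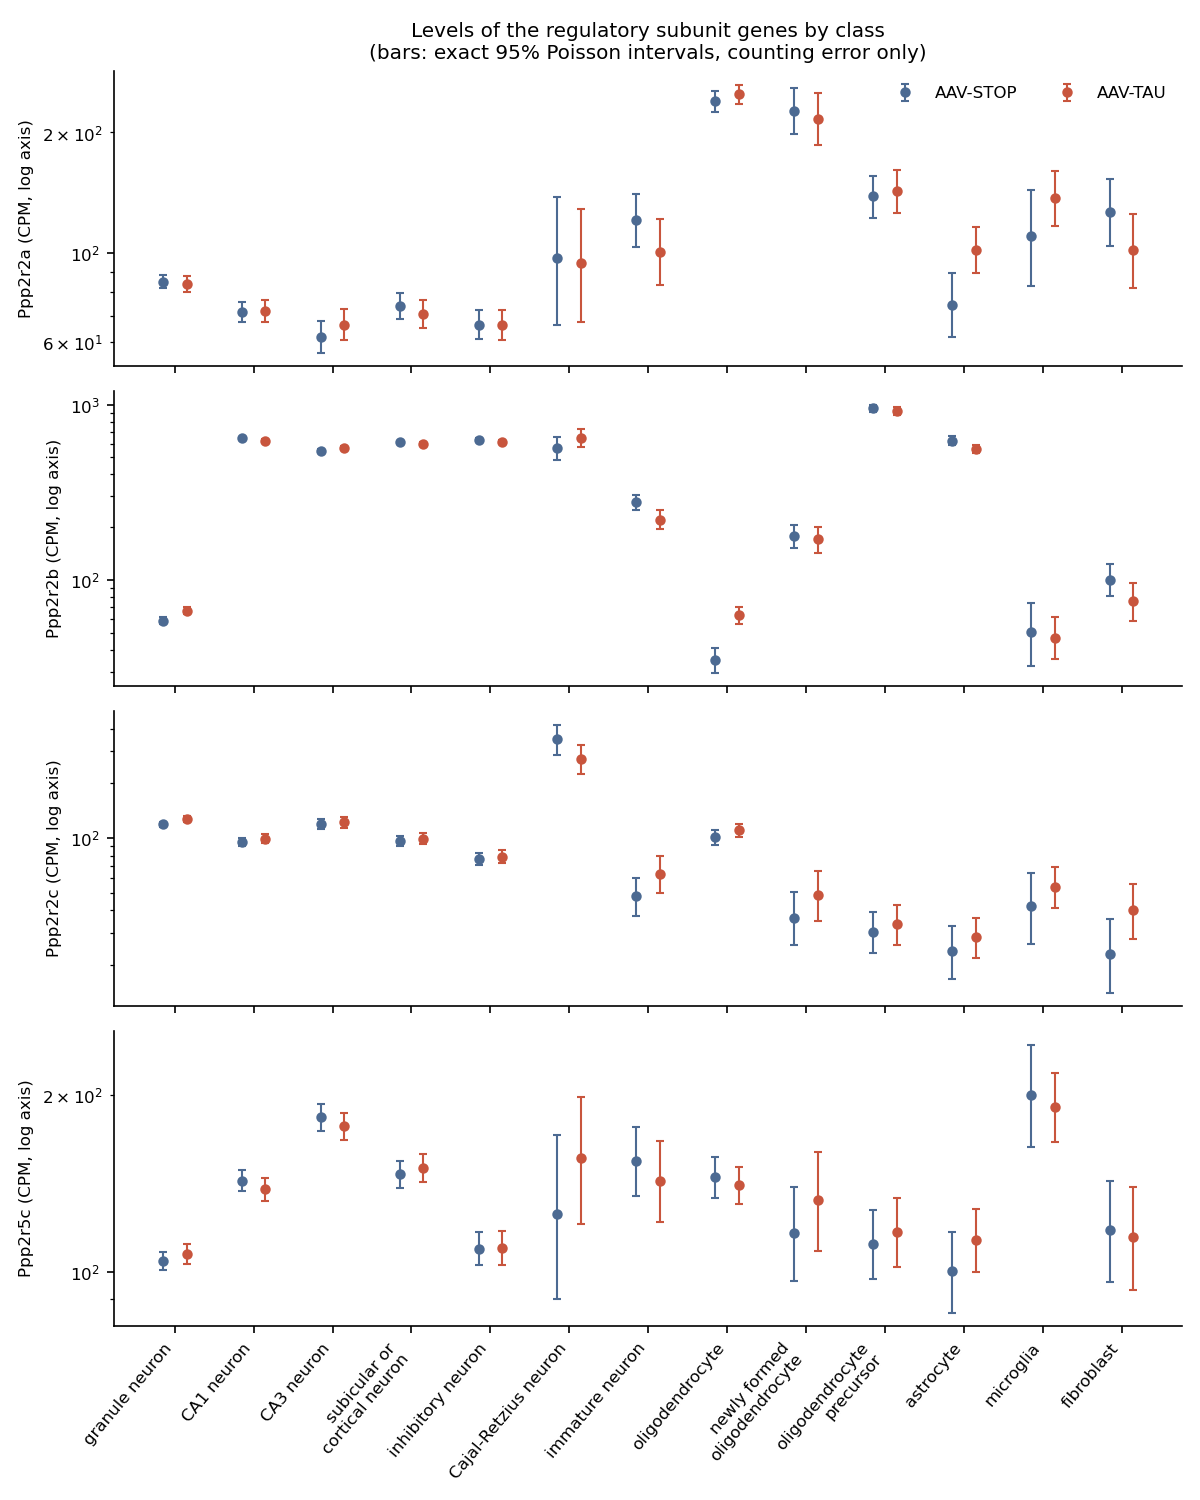
Levels in CPM (log axes, 1 panel per gene with its own range) of the regulatory genes Ppp2r2a, Ppp2r2b, Ppp2r2c and Ppp2r5c in the 13 classes for AAV-STOP (blue) and AAV-TAU (red), with bars for exact 95% Poisson intervals. Ppp2r2b is at 58.6 and 66.8 CPM in granule neurons against 644 and 622 CPM in CA1 neurons, and oligodendrocyte precursors and mature oligodendrocytes show opposite orders of Ppp2r2b against Ppp2r2a and Ppp2r2c.

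By the correlation of log2(CPM + 5) over the 26 points of 13 classes and 2 libraries, the genes with the pattern most like Mid1 were Sh3pxd2b, an adaptor protein of cell protrusions, Plcd1 and Plcg1, both phospholipases C, with Pearson r of 0.91, 0.91 and 0.88. Ppp2r2a was most like Ugt8a and Cldn11, myelin genes of oligodendrocytes, each with r of 0.96. For Ppp2r2b they were Dzip1, Hmgcll1 and Adgrl3 (0.89, 0.87 and 0.85). Igbp1 levels were most like Pter, Ebp and Cbfb (0.91, 0.89 and 0.88) and Ppp2ca levels like Pkm, Taldo1 and Hmgcs1 (each 0.94). These points share libraries and depth, so the values are descriptive. Mid1 and Igbp1 levels themselves had r = 0.10, and Mid1 and Ppp2ca 0.17.

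The rest of the pathway was read from lists. Of 12 other PP2A subunit genes, all reached the minimum in granule-like and CA1-like neurons, and none passed the fold in either class (medians 0.10 and 0.07). There 3.86% and 4.58% of all genes were higher past it and 0.0997% and 0.162% lower. Inhibitory-like neurons had 2 of 12 higher, where 6.67% of all genes were, Ppp2r1b, the second scaffold gene, at 8.38 and 12.03 CPM (0.35) and Ppp2r3d at 9.91 and 15.0 CPM (0.42). Ppp2r2d was higher in astrocyte-like nuclei (31.3 and 51.7 CPM, 0.64) and lower in precursor-like nuclei (51.8 and 33.5 CPM, -0.56).

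Of 14 activators, methylation enzymes and inhibitors of PP2A, none that reached the minimum was lower past the fold in any class. In those classes 0.0997% (granule-like) to 12.8% (fibroblast-like) of all genes were lower. In Cajal-Retzius-like neurons none reached the minimum. Those higher numbered 1 of 12 in granule-like neurons (3.86% of all genes tested), 3 of 11 in CA1-like neurons (4.58%), 2 of 11 in CA3-like neurons (6.66%) and 4 of 11 in oligodendrocyte-like nuclei (14.4%). Set, which encodes an inhibitor of PP2A, passed it as higher in 7 classes, where 4.58% (CA1-like) to 17.4% (microglia-like) of all genes were higher. It was at 71.2 and 87.9 CPM in granule-like neurons (0.29, short of the fold), 56.9 and 75.9 CPM in CA1-like neurons (0.39), 101 and 146 CPM in astrocyte-like nuclei (0.50) and 102 and 153 CPM in oligodendrocyte-like nuclei (0.56). Anp32e, of the same family as the inhibitor Anp32a, was higher in CA1-like neurons (10.5 and 14.8 CPM, 0.35) and inhibitory-like neurons (10.7 and 17.9 CPM, 0.54), and Bod1, a PP2A inhibitor at kinetochores, in granule-like neurons (15.2 and 20.5 CPM, 0.34). Set spans 15.2 kb and Bod1 6.7 kb, within the length class whose genes lay above 0.

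Mid2, the nearest relative of Mid1, was at 29.7 and 31.0 CPM in granule-like neurons (0.05), 11.7 and 14.2 CPM in CA1-like neurons (0.21) and 48.2 and 42.5 CPM in astrocyte-like nuclei (-0.16). Of the 10 Mid1 relatives and other alpha4-binding subunits, 7 reached the minimum in granule-like and 8 in CA1-like neurons, none past the fold. There 3.86% and 4.58% of all genes were higher past it and 0.0997% and 0.162% lower. Trim9, a related ubiquitin ligase of neurons, was lower in astrocyte-like nuclei, at 786 and 552 CPM (-0.51).

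Among 8 other phosphatases that act on tau, including the catalytic genes of PP1 and calcineurin, none passed the fold in granule-like, CA1-like, CA3-like or inhibitory-like neurons, with medians of 0.08, 0.04, 0.04 and 0.14. Of all genes tested in these classes, 3.86%, 4.58%, 6.66% and 6.67% were higher past it and 0.0997%, 0.162%, 0.949% and 0.587% lower. Ppp1ca, a PP1 catalytic gene, was higher in subicular or cortical-like neurons (9.72 and 15.1 CPM, 0.45) and in oligodendrocyte-like nuclei (20.7 and 35.0 CPM, 0.64). Of 26 kinases that act on tau, 26 reached the minimum in granule-like and CA1-like neurons. Mapk3, a MAP kinase, was the 1 that was higher in granule-like neurons, at 21.2 and 27.8 CPM (0.33), where 3.86% of all genes were higher. In CA3-like neurons 1 of 25 was higher (6.66% of all genes), and in subicular or cortical-like neurons 1 of 26 (7.72%). None was higher in CA1-like (4.58%) or inhibitory-like neurons (6.67%). None was lower in any of these classes, where 0.0997% (granule-like) to 1.04% (subicular or cortical-like) of all genes were lower.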

How the data were processed

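Single nuclei of pooled hippocampi of 3 mice per group were counted with a 10x Genomics 3′ assay, 1 library per group. The authors deposited raw UMI counts per gene and barcode. Per the file headers the tables were written by Cell Ranger 8.0.1, while the submitters' processing notes name Cell Ranger 4.0 and mm10. Whether the counting used strand is not given in the sources used here. Barcodes under 500 UMIs or 300 genes, above 5% mitochondrial counts or marked as doublets by scrublet (2464 in AAV-STOP and 2285 in AAV-TAU, expected rate 0.15) were left out. Both libraries were clustered together with scanpy 1.11.5 and leidenalg 0.10.2 (3000 variable genes, 30 principal components, 15 neighbours, resolution 1), and 25 of 38 clusters were named from marker genes, so the classes are rebuilt and may differ from the authors' own. UMIs were summed per class and library, scaled to CPM and compared with a pseudocount of 5 CPM. Intervals are exact Poisson for levels, exact conditional binomial for ratios and Clopper-Pearson for shares, and with 1 library per group no p-value was computed. The ratio calculation was tested on simulated data. The named genes are the 9 members, the 3 genes most like each by Pearson correlation among genes with 20 CPM in a class of both libraries, and up to 3 genes per list and class past the fold (0.322 on the log2 scale) with the largest ratio. Further genes are named as relatives or neighbours of Mid1. One gene that this rule names is not reported here. The members, the lists and the class naming rules were chosen with earlier results of these data known. Gene positions are from GENCODE vM21 on GRCm38 and start-site windows from RefSeq on GRCm38.p6.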

Additional observations from a re-analysis of the deposited data

Results flagged for a closer look

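Ppp2r2b passed a log2 ratio of 0.322 in opposite directions in different classes, with a log2 ratio of 0.77 in oligodendrocyte-like nuclei (34.9 and 62.9 CPM) and of -0.39 in fibroblast-like nuclei (100.5 and 75.7 CPM). Ppp2r2c did so with 0.38 in immature-like neurons (47.8 and 63.5 CPM) and -0.35 in Cajal-Retzius-like neurons (349 and 272 CPM). With 1 library per group the difference between the classes was not tested in either case.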

How the results depend on the processing

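The 117 member and class ratios were recomputed under 11 alternatives, which gave 1224 values. Of these, 1184 moved by no more than counting error, 38 moved further and 2 that had passed the fold changed direction. Ratios short of the fold or under 100 UMIs changed sign more often: the sign was kept in 9 of 11 alternatives by Ppp2cb in granule-like neurons and by Mid1 in oligodendrocyte-like nuclei (-0.63 to 0.35), and in 7 of 11 by Igbp1 in CA1-like neurons. The cause was not tested. Both changes past the fold came with nuclei under the median mitochondrial share, where Mid1 in immature-like neurons was 0.21 and Ppp2r2c there was -0.25, and under the same restriction Mid1 in inhibitory-like neurons was -0.80. A pseudocount of 20 CPM, which pulls low genes toward 0 by its construction, gave -0.30 for Mid1 in granule-like and -0.37 in CA1-like neurons. Thinning to 2000 UMIs gave -0.85 in CA1-like neurons. Over the alternatives Mid1 ran from -0.52 to -0.30 in granule-like, from -0.85 to -0.37 in CA1-like and from -0.51 to -0.18 in CA3-like neurons, and from -0.37 to -0.19 in astrocyte-like nuclei. Ppp2ca in granule-like neurons ran from 0.21 to 0.32, and Ppp2r2b in oligodendrocyte-like nuclei from 0.50 to 0.99. At a fold of 1.5 the count of members lower in granule-like neurons was 0, while Mid1 in CA1-like neurons, at -0.61, still passed as lower. The share of all genes past that fold is not given here. Unthinned shares of nuclei with a Mid1 UMI were 14.7% and 9.78% in granule-like and 15.2% and 8.70% in CA1-like neurons. CA3-like neurons could not be named with doublets kept or at resolutions of 0.5 and 2, newly formed oligodendrocyte-like nuclei with doublets kept, and Cajal-Retzius-like, microglia-like and fibroblast-like nuclei gave no value at low mitochondrial share. No paired analysis was possible because each group is 1 library. Depth limits the classes with under 100 Mid1 UMIs, and intervals do not cover the spread between mice.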
